A study of Mus musculus with 12 samples.

Results

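The brains of mice carrying 1 functional copy of Gja9, labelled Gja9(+/-) and called Gja9_het here, were compared with those of wildtype mice. The comparison uses 8 of the 12 samples of the series, 4 Gja9_het and 4 wildtype, chosen by the genotype in the sample labels. All were brains of C57Bl/6j mice taken at postnatal day 10, and the labels name no further allele, Cre or treatment and no sex. The other 4 samples come from Gja9_null mice, which lack both copies; they entered the fit to estimate the spread and are given beside the heterozygote where useful. The study asked how partial and total loss of this gene change the brain transcriptome.

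The gene that the labels call Gja9 has since been renamed Gjd2, and its product is connexin36. Connexins assemble into hexameric channels, and channels of adjoining cells dock to form gap junctions. Connexin36 is the main gap junction protein of neurons in the mammalian brain, where it forms the electrical synapses that couple inhibitory interneurons, cells of the inferior olive and retinal neurons. A heterozygote keeps an intact allele, so the contrast asks what loss of a single copy does. Of the probes on the array, 0 name Gjd2, so the level of the targeted gene could not be checked in any sample, and the genotypes rest on the labels alone.

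RNA from 2 samples of a genotype was hybridised to each spotted cDNA array, one in Cy5 and the other in Cy3. The 8 samples therefore lie on 4 arrays, 2 for each genotype, and genotype varies only between arrays. Samples 1 and 2 of a genotype shared an array, as did samples 3 and 4. A value was deposited for 13443 of 28704 probes, the same ones in every sample, and each value is a log2 signal set against the average of that sample, so that 0 is the sample's mean. Averaging the clones (spotted cDNA probes) of a gene gave 9514 features: 6427 genes and 3087 probes without a single gene name. The colours of an array correlated across probes at 0.989 and 0.988 in wildtype and at 0.99 and 0.991 in Gja9_het, while samples of a genotype on different arrays correlated at 0.865 to 0.873 in wildtype and 0.914 to 0.921 in Gja9_het. No measure of signal over background was used here, and the number of arrays limits the precision.

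No gene or unnamed probe could be called different between Gja9_het and wildtype brain after adjustment for the number tested. With limma, an empirical Bayes linear model that here treats the array as a random block, 0 of 9514 features passed (0.0%), and the smallest Benjamini-Hochberg adjusted p was 1. An unadjusted p under 0.05 was found at 159 higher features (1.67%) and 49 lower ones (0.515%), together 2.186% of all. Of these, 85 higher and 23 lower features are single genes. The median difference over all features was 0.03 on the log2 scale, and 95% of differences lay between -0.58 and 0.77.

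Single arrays of different genotypes were about as far apart as single arrays of the same genotype. The median absolute difference between a Gja9_het array and a wildtype array was 0.262, 0.289, 0.294 and 0.332 in the 4 pairings, against 0.277 between the Gja9_het arrays and 0.357 between the wildtype arrays. Between the means of the genotypes, each over 2 arrays, it was 0.202. The standard error of a difference had a median of 0.357, with quartiles of 0.312 and 0.417. The 95% confidence interval lay within 1 log2 unit of 0 for 3587 of the 6427 genes (55.8%), so for these a change of 2-fold or more in either direction is outside the interval. For the remaining genes the interval reaches past that size on at least one side. A difference of at least 1 log2 unit was measured at 88 higher and 20 lower features, and for 57 and 10 of them the samples of the genotypes did not overlap. Over all features, the samples did not overlap at 825 higher (8.67%) and 579 lower features (6.09%). Since the colours of an array are not independent, 4 separated samples amount to 2 separated arrays.

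The genes described next are those with the smallest unadjusted p in each direction. They lead a ranking in which nothing passed, and their limma adjusted p was 1 in each case. In whole brain tissue, fewer cells of a type and less RNA per cell cannot be told apart.

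The leading gene of higher value was Slc7a6, an exchanger of cationic and neutral amino acids that works with the heavy chain Slc3a2. Its levels in Gja9_het samples 1 to 4 were 3.56, 3.65, 2.76 and 2.80, and in wildtype 2.15, 2.15, 0.39 and 0.50. The groups did not overlap, but the wildtype arrays themselves were 1.70 apart. The difference was 1.90 ± 0.43 (SE, n = 4 samples on 2 arrays in each genotype), a 3.72-fold higher signal with a 95% interval of 0.98 to 2.81 in log2, and the unadjusted limma p was 0.00053.

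Sema3a and Numb, both at work in the wiring and birth of neurons, came next in rank. Sema3a encodes a secreted semaphorin that repels growing axons through neuropilin and plexin receptors. It measured -0.92, -1.16, -0.89 and -1.15 in Gja9_het and -2.12, -2.17, -2.71 and -2.63 in wildtype. The Gja9_het arrays lay 0.02 apart and the wildtype arrays 0.52, and the difference was 1.38 ± 0.37 (95% interval 0.59 to 2.16). Numb, an endocytic adaptor that restrains Notch signalling and is inherited unequally by dividing neural progenitors, measured -1.17, -1.08, -1.48 and -1.55 in Gja9_het and -2.44, -2.41, -2.68 and -2.78 in wildtype. Its difference was 1.25 ± 0.33 (95% interval 0.54 to 1.96). For both genes the gap between genotypes was wider than the gap between arrays of either genotype.

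Oas1a, an interferon-induced synthetase that senses double-stranded RNA, had levels of -1.34, -1.37, -1.87 and -1.91 in Gja9_het. In wildtype they were -3.92, -3.86, -3.00 and -2.64, which spans 1.07 between the arrays. The difference was 1.73 ± 0.48. Irak1, a kinase that carries signals from Toll-like and interleukin-1 receptors, measured -1.71, -1.40, -2.14 and -2.21 against -3.01, -2.69, -3.54 and -3.47, a difference of 1.31 ± 0.39. Both genes were dim in wildtype, far under the mean signal of the sample.

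Pxn encodes paxillin, the scaffold of focal adhesions. It measured -1.74, -1.76, -1.56 and -1.82 in Gja9_het and -2.70, -2.72, -2.81 and -2.83 in wildtype. The samples within each genotype lay unusually close together, and the difference was 1.04 ± 0.30. Snx4, a sorting nexin of endosomal recycling, was likewise tight, with 0.29, 0.16, 0.39 and 0.22 against -0.64, -0.76, -0.46 and -0.49 and a difference of 0.85 ± 0.25. Ak7, an adenylate kinase of motile cilia, was not: its wildtype levels were 0.90, 0.95, -1.01 and -1.10, and its Gja9_het levels 1.65, 1.92, 1.33 and 1.28. Its difference of 1.61 ± 0.50 is smaller than the 1.98 between the wildtype arrays. Gucd1 (1.10 ± 0.32) and Cactin (1.22 ± 0.39), whose product binds the spliceosome, complete the 10. For all 10, the Gja9_het and wildtype samples did not overlap, and each gene rests on a single clone. Mmp19, a matrix metalloproteinase (1.40 ± 0.54), and Shmt1, the cytosolic serine hydroxymethyltransferase of folate metabolism (1.38 ± 0.55), were also among the 6 largest differences of genes with non-overlapping samples.

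**Figure D1:**
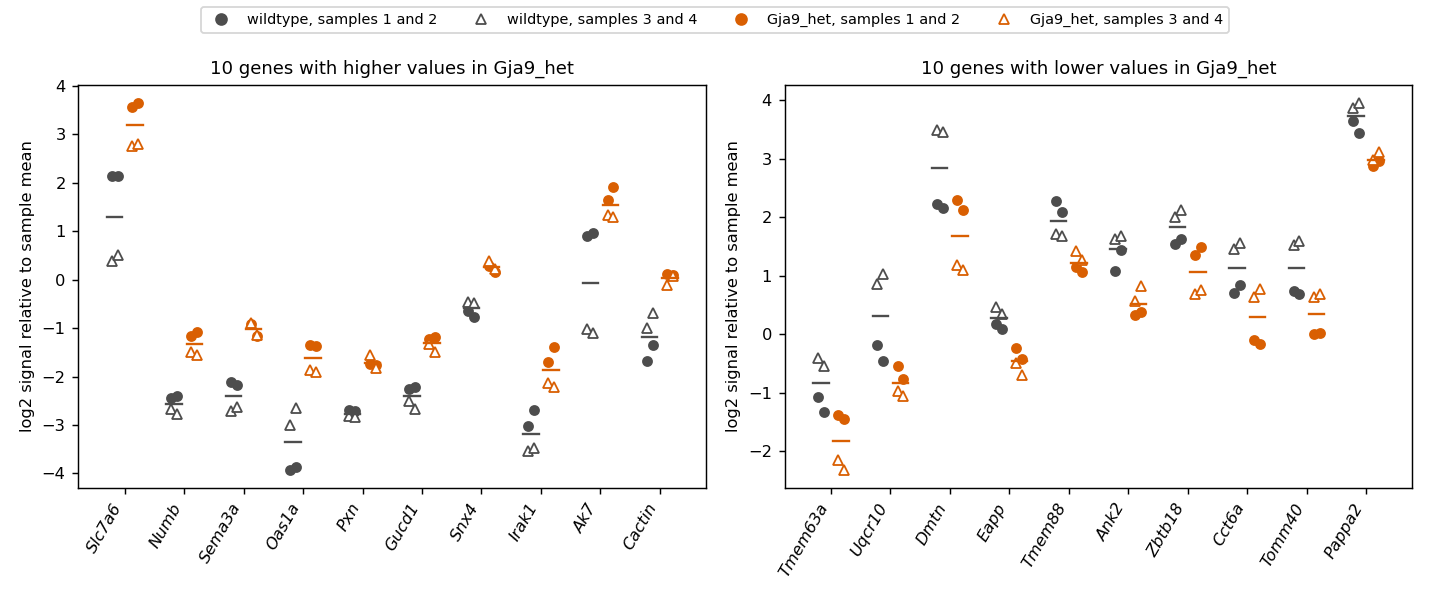
Log2 signal relative to the sample mean (vertical axis) of the 10 higher and 10 lower genes of smallest unadjusted p in Gja9_het (orange) and wildtype (grey) brain. Each symbol is a sample, circles for samples 1 and 2 and triangles for samples 3 and 4, and the bar is the mean of 4; in Slc7a6 and Ak7 the wildtype arrays stand 1.70 and 1.98 apart, while in Pxn all samples of a genotype lie together.

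Genes of lower value in Gja9_het included a stretch-sensitive channel, mitochondrial proteins and proteins of the membrane skeleton. The 10 leading ones differed by 0.71 to 1.16 in size, against 0.85 to 1.90 for the 10 higher ones. The median level of the 49 lower features was 0.10, against -0.95 for the 159 higher ones and -0.90 over all features. Tmem63a, a mechanically gated cation channel, had the smallest p of this direction. It measured -1.37, -1.45, -2.14 and -2.31 in Gja9_het and -1.07, -1.33, -0.40 and -0.54 in wildtype. The highest Gja9_het sample lay just under the lowest wildtype sample, both on the first array of their genotype, and only the second arrays stood well apart. The difference was -0.99 ± 0.35 (95% interval -1.73 to -0.24; unadjusted limma p 0.013).

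Uqcr10, a small subunit of respiratory complex III, measured -0.55, -0.77, -0.96 and -1.05 in Gja9_het and -0.19, -0.45, 0.86 and 1.04 in wildtype, a difference of -1.15 ± 0.42. Here too the wildtype arrays lay 1.27 apart, and only the second was far above Gja9_het. Dmtn encodes dematin, which bundles actin under the red cell membrane and is also made in brain. Its levels of 2.29, 2.13, 1.19 and 1.09 in Gja9_het overlapped the 2.23, 2.17, 3.49 and 3.46 of wildtype, and the difference was -1.16 ± 0.42.

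Ank2, or ankyrin-B, which anchors channels and adhesion molecules to the spectrin skeleton of axons, measured 0.33, 0.38, 0.56 and 0.82 in Gja9_het and 1.08, 1.44, 1.62 and 1.67 in wildtype. All 4 wildtype samples lay above all 4 Gja9_het samples, and the difference was -0.93 ± 0.38. Pappa2, a protease that frees insulin-like growth factors from their binding proteins, was the brightest gene of this set, with 2.87, 2.96, 2.98 and 3.11 against 3.64, 3.44, 3.86 and 3.95. Its samples did not overlap, and its difference was -0.74 ± 0.31. Eapp, an E2F-associated phosphoprotein (-0.73 ± 0.28), and Tmem88, an inhibitor of Wnt signalling that binds Dishevelled (-0.71 ± 0.29), were separated as well. Cct6a, a subunit of the cytosolic chaperonin (-0.85 ± 0.35), and Tomm40, the pore of the outer mitochondrial import machinery (-0.79 ± 0.33), overlapped between genotypes. In all, 7 of the 10 lower genes had samples that did not overlap.

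Several members of the set with the largest differences among non-overlapping genes had wide errors. Lrrc56 (-1.10 ± 0.46) and Casd1, which acetylates sialic acids (-0.92 ± 0.45), stood beside Cst3, the secreted protease inhibitor cystatin C. Cst3 measured 1.29, 0.27, 1.87 and 2.04 in Gja9_het and 2.29, 2.31, 2.27 and 2.36 in wildtype. Its difference of -0.94 ± 0.76 comes from 1 of its 2 clones, since the other differed by -0.01 ± 0.38.

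A gene spotted as several clones is measured several times on each array, at separate places. For 2586 genes at least 2 clones had values, and across these genes the difference at the first clone and that at the last had a Pearson correlation of 0.035, with the same sign in 51.3%. The clones of a gene share samples and arrays, and genes are not independent replicates, so the correlation is a description. The mean level over all samples correlated at 0.419 between the same clones. A difference of at least 1 log2 unit was found at the first or last clone of 60 genes. In 33 of these the other clone pointed the same way, and in 0 of them did both reach that size in the same direction. At this cutoff, a difference at a clone was thus not seen again at the other clone in any of these genes. The 0 depends on the cutoff, since the clones of Wnk2 gave 0.994 and 1.003.

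Among genes with several clones, 358 had averaged samples that did not overlap, and in 130 higher and 130 lower genes all clones also pointed the same way. These 358 are 13.8% of the 2586, beside 14.8% of all features without overlap. Choosing genes by their separated averages favours clones that point the same way, so their agreement is not a replication. Over all 2586 genes the first and last clones had the same sign in 51.3%. Of the genes with matching clones, the 5 of smallest unadjusted p in each direction are described here. Wnk2, a kinase that controls chloride cotransporters, measured 1.52, 1.60, 1.06 and 1.14 in Gja9_het and 0.76, 0.93, -0.20 and -0.14 in wildtype. Its clones gave 0.994 and 1.003, and the gene 0.999 ± 0.326. Selenof and Selenos, selenoproteins of the endoplasmic reticulum, differed by 0.68 ± 0.27 and 0.74 ± 0.29. The clones of Selenof gave 0.67 and 0.68, while those of Selenos gave 1.23 and 0.25. Ankmy2 (0.75 ± 0.29) and the zinc finger gene Zfp821 (0.71 ± 0.30) were the others in this direction.

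Cend1, which drives neuronal precursors out of the cell cycle, was among the lower genes of this kind. It measured 0.13, -0.00, 0.50 and 0.79 in Gja9_het and 0.97, 1.08, 1.24 and 1.40 in wildtype, and its clones gave -0.82 and -0.81. Zbtb18, a transcriptional repressor required for cortical neuron differentiation, had the smallest p among them and was covered by 4 clones, which gave -0.56, -1.65, -0.19 and -0.61. All point downwards, yet they range widely, and the gene's difference was -0.75 ± 0.31. Supt4a, a subunit of a transcription elongation factor (-0.74 ± 0.34), Pex13, a docking factor for peroxisomal import (-0.69 ± 0.32), and Sec62, of the translocon of the endoplasmic reticulum (-0.63 ± 0.30), were the others. Averaging narrowed the error only a little: the median SE was 0.375 with 1 clone and 0.318 with at least 2.

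**Figure D2:**
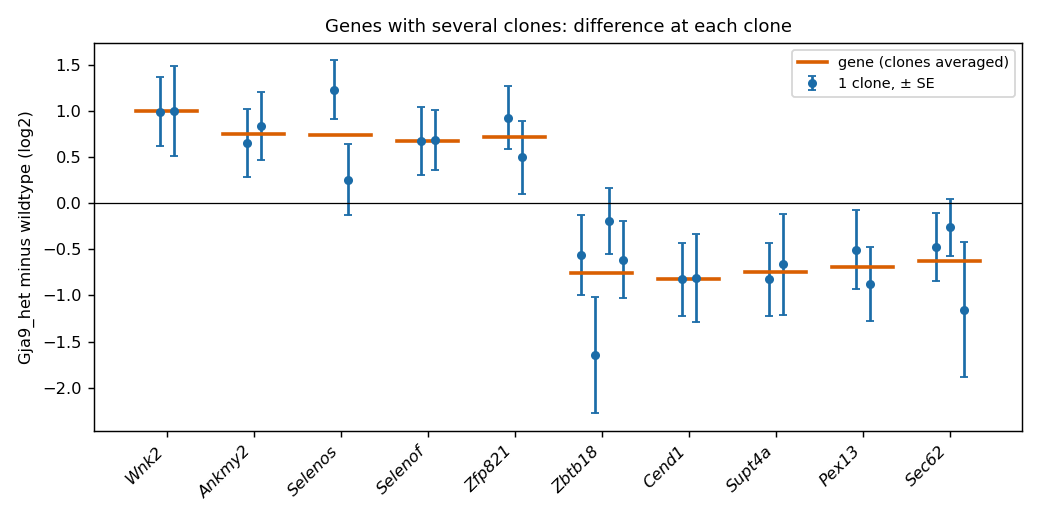
Difference between Gja9_het and wildtype (log2, vertical axis) at each clone of 10 genes with several clones; each point is a clone with its standard error and the orange bar is the gene with its clones averaged. Clones of Wnk2, Selenof and Cend1 lie together, while those of Selenos and Zbtb18 range from 0.25 to 1.23 and from -1.65 to -0.19.

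The gap junction family itself was represented by Gja1 and Panx1. Gja1 encodes connexin43, the main gap junction protein of astrocytes. Its levels were 0.41, 0.36, 0.39 and 0.42 in Gja9_het and 0.75, 0.58, 0.94 and 0.77 in wildtype. The Gja9_het samples were all lower, but the difference of -0.37 ± 0.41 had an interval of -1.25 to 0.52. Panx1, a pannexin that forms channels in a single membrane, measured -1.07, -1.16, -1.34 and -1.51 against -0.65, -0.83, -1.25 and -1.55. These overlapped, the difference was -0.20 ± 0.36, and its clones pointed in opposite directions, with 0.20 and -0.60. With each sample centred on its neighbouring probe numbers, the same clones gave -0.26 and -0.47.

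The rest of the brain transcriptome was read through 33 gene lists for cell types, synapses, signalling and housekeeping. Together they held 810 measured genes. Of these, 13 were higher (1.605%) and 6 lower (0.741%) at an unadjusted p under 0.05, beside 1.67% and 0.515% of all features. Samples did not overlap at 68 higher (8.40%) and 48 lower list genes (5.93%), beside 8.67% and 6.09% of all features. Among the 29 lists with at least 5 measured genes, the median difference ran from -0.24 to 0.24, against 0.03 over all features, and no member of any list passed the adjusted threshold.

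Among genes of neurons and synapses, a postsynaptic adhesion gene, Nlgn2, was the only one with an unadjusted p under 0.05. For the 13 pan-neuronal markers the median was -0.06, from -0.53 to 0.39. Stmn3, a neuronal regulator of microtubules, measured 2.65, 2.45, 2.14 and 2.22 in Gja9_het and 2.82, 2.86, 2.86 and 3.05 in wildtype, a difference of -0.53 ± 0.32. Nefm, the medium neurofilament, differed by -0.43 ± 0.53. GABAergic neuron markers, of interest because interneurons are a main site of connexin36, had 7 measured members with a median of 0.04, among them Calb1 at 0.41 ± 0.38, Cck at 0.38 ± 0.68 and Maf at -0.35 ± 0.43. None of the 7 had separated samples.

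Of the 15 genes of synaptic vesicles and transmitter release, 10 were lower and 5 higher in value, with a median of -0.18. Nsf, the ATPase that recycles fusion complexes, differed by -0.63 ± 0.44, the vesicle SNARE Vamp2 by -0.54 ± 0.39 and the vesicle GTPase Rab3a by -0.56 ± 0.37. Rab3a was low in all Gja9_het samples (0.92, 0.80, 0.96 and 0.97), but only the second wildtype array stood clear of them (1.06, 1.01, 1.86 and 1.96). The list of glutamate receptors and excitatory synapse proteins had 10 measured genes and a median of 0.03. The highest was Nlgn2, a neuroligin of inhibitory synapses, at 0.70 ± 0.30, with its 2 clones at 0.61 and 0.80. Its levels were 1.90, 1.98, 1.95 and 2.06 in Gja9_het and 1.60, 1.62, 0.94 and 0.90 in wildtype. The 23 voltage-gated ion channel genes had a median of 0.01.

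Among genes of guidance and development, Sema3a and Numb had the lowest p. Of 35 axon guidance ligands and receptors, 27 had a higher value in Gja9_het, with a median of 0.13. Sema3a had the smallest p of the list, and the others had an unadjusted p above 0.05. Next came Dpysl3, a cytosolic mediator of semaphorin signals, at -0.66 ± 0.46, and the netrin receptor Neo1 at 0.46 ± 0.35. Of 31 Notch pathway genes, 19 had a higher value, with a median of 0.05. Besides Numb, the receptor Notch1 measured 0.03, 0.22, 0.75 and 0.73 in Gja9_het and -0.13, -0.09, -0.24 and -0.11 in wildtype. Its difference was 0.58 ± 0.29, and 0.19 once each sample was centred on its neighbouring probe numbers. The acetyltransferase Kat2b differed by 0.52 ± 0.37. The 23 Wnt pathway genes had a median of -0.01 and no member at an unadjusted p under 0.05.

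Among glial markers, Fabp7 had the largest difference, and none passed the adjusted test. The 19 astrocyte and radial glia markers had a median of -0.19, and the samples of 5 of them were separated with lower values in Gja9_het and those of 1 with higher values, where 6.09% and 8.67% of all features were. Set against the midpoint of the genotype means, the list median was -0.23 and -0.21 in Gja9_het samples 1 and 2. It was 0.04 and 0.19 in Gja9_het samples 3 and 4, and 0.02 to 0.15 in wildtype. Fabp7, the fatty acid binding protein of radial glia, stood apart from the list at 1.75 ± 0.67, with 1.65, 1.61, 2.42 and 2.28 in Gja9_het. In wildtype it measured -1.36, -1.12, 1.65 and 1.79, so that only the first wildtype array was low and the second reached the Gja9_het level. Slc1a3, the astrocyte glutamate transporter, was lower in all Gja9_het samples (1.12, 1.36, 0.96 and 1.19 against 1.55, 1.72, 1.57 and 1.77), a difference of -0.49 ± 0.31. Ttyh1 differed by 0.44 ± 0.27.

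The 10 oligodendrocyte and myelin markers had the lowest median of the lists with at least 5 measured genes, -0.24, with Fyn at -0.80 ± 0.38, Mal at -0.45 ± 0.91 and Car2 at -0.26 ± 0.39. None of the 10 had separated samples. Set against the midpoint of the genotype means, the list median was -0.64 and -0.26 in Gja9_het samples 1 and 2. It was 0.15 and 0.19 in Gja9_het samples 3 and 4, and -0.03 to 0.08 in wildtype. Only the first Gja9_het array was therefore low for this list. The 5 precursor markers had the highest median of those lists, 0.24, with Sox8 at 0.50 ± 0.36 and Olig2 at 0.26 ± 0.34. Microglial and immune markers (12, median 0.11) included Itgam at -0.46 ± 0.27 and Tyrobp at 0.59 ± 0.42. Endothelial and pericyte markers (12, median 0.12), erythroid markers (7, median -0.01) and markers of choroid plexus, ependyma and meninges (11, median 0.01), which follow blood and the dissection, were close to the median of all features. Within the erythroid list Dmtn alone had an unadjusted p under 0.05.

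In the adhesion and matrix lists, the leading genes were those of focal adhesions. Of 37 focal adhesion and integrin genes, 20 had a higher and 17 a lower value, and the median was 0.05. The 3 with an unadjusted p under 0.05 were all higher: Pxn, the small GTPase Rap1b that activates integrins (0.69 ± 0.29), and the actin-binding adhesion protein Tns1 (0.69 ± 0.31). Over all features 1.67% were higher and 0.515% lower at that p. Rap1b measured -0.23, -0.45, 0.08 and 0.11 in Gja9_het and -0.75, -0.89, -0.76 and -0.86 in wildtype. Tns1 measured -0.60, -0.64, -0.54 and -0.51 against -1.58, -1.39, -1.04 and -1.04. The 35 extracellular matrix genes had a median of 0.04 and the 30 cadherin, catenin and junction genes one of -0.03, where Pard3, a polarity protein, differed by 0.87 ± 0.49.

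Of 18 interferon and antiviral genes, 10 had a higher value. Oas1a and Samhd1, which degrades nucleotides against retroviruses (0.89 ± 0.40), had an unadjusted p under 0.05, whereas Tapbp, of antigen loading, differed by -0.68 ± 0.38. The median was 0.13. Of 20 amino acid transporters, 13 had a higher value with a median of 0.17. That median was 0.03 once each sample was centred on its neighbouring probe numbers. The samples of 6 transporters were separated with higher values and those of 1 with lower values, where 8.67% and 6.09% of all features were. After Slc7a6 came the mitochondrial ornithine carrier Slc25a15 (0.67 ± 0.37) and the glutamine transporter Slc38a3 (0.56 ± 0.33).

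The large housekeeping lists were centred near 0. Cytosolic ribosomal proteins (62 genes) had a median of -0.06, proteasome subunits (39) -0.02 and chaperones and stress genes (74) 0.00, where Eif2ak4, the kinase that senses amino acid shortage, differed by 0.88 ± 0.37 and Cct6a was lowest. The 66 subunits of oxidative phosphorylation had a median of -0.03. The 2 with an unadjusted p under 0.05 were both lower, Uqcr10 and the ATP synthase subunit Atp5j (-0.83 ± 0.35), which measured 0.31, 0.28, 0.96 and 0.89 against 1.13, 1.14, 1.69 and 1.78. Tubulin, actin and motor genes (83, median -0.03) held Tuba8 at 0.80 ± 0.31 and the motors Myo9a at -0.75 ± 0.32 and Kif23 at -0.73 ± 0.34. Proliferation genes (66, median 0.08) held the replicative helicase subunit Mcm4 at 0.84 ± 0.32 and, again, Kif23, which also acts in cytokinesis. Glycolysis (25, median 0.04), calcium signalling (38, median -0.02) and circadian genes (11, median -0.06) had no member at an unadjusted p under 0.05.

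**Figure D3:**
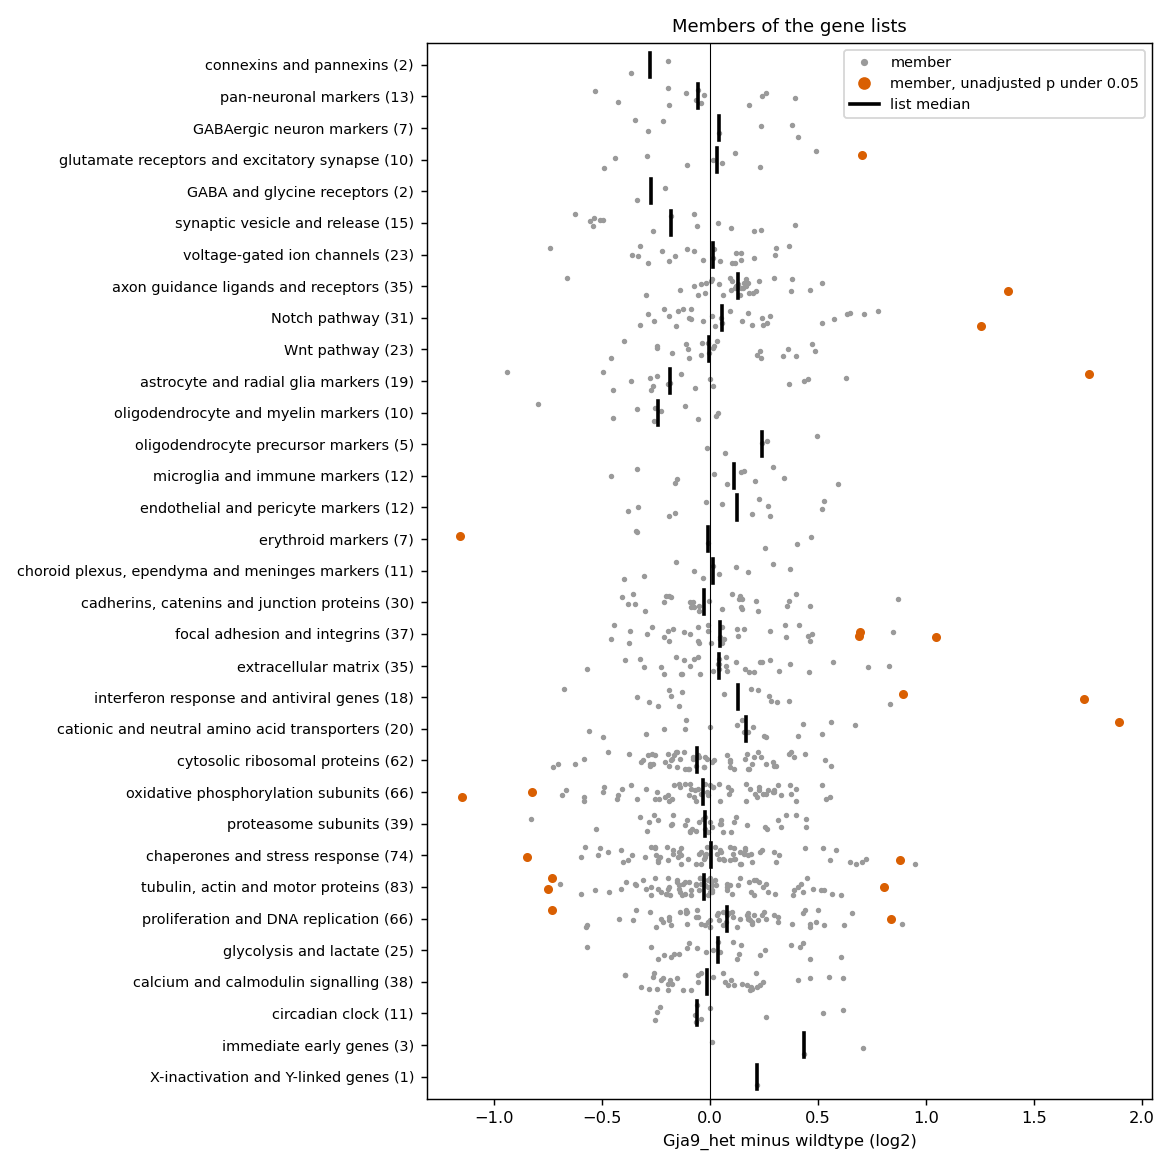
Difference between Gja9_het and wildtype (log2, horizontal axis) for every measured member of the gene lists, with the number measured in brackets. Grey points are members, orange points those with an unadjusted limma p under 0.05 and black bars the list medians; lists with at least 5 members have medians between -0.24 and 0.24.

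The Gja9_null brains are set against the same 4 wildtype samples, so their differences share any error of the wildtype arrays with those above, and the values are only placed side by side. Slc7a6 differed by 2.16 in Gja9_null (adjusted limma p 0.0496), Irak1 by 2.03 (adjusted limma p 0.044) and Ak7 by 2.24. Sema3a differed by 0.45, Numb by 0.35, Oas1a by 0.52 and Snx4 by 0.22. Among lower genes, Pappa2 differed by -0.94 in Gja9_null, Uqcr10 by -0.23, Dmtn by -0.06 and Tmem63a by 0.69.

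Gja9_het and Gja9_null were tested against each other directly in the same limma model, which does not use the wildtype samples in the contrast. Of the 119 genes chosen for description, 0 had an adjusted p under 0.05, and the smallest was 0.0652, shared by Tmem63a and Pard3. Tmem63a measured 0.14, 0.09, -0.37 and -0.44 in Gja9_null, and its difference, Gja9_het minus Gja9_null, was -1.67 ± 0.35. Pard3 measured -2.72, -3.30, -2.35 and -2.36 in Gja9_null and -0.50, -0.46, -0.17 and -0.11 in Gja9_het, a difference of 2.37 ± 0.49. For Sema3a the direct difference was 0.93 ± 0.37 and for Numb 0.91 ± 0.33, with limma adjusted p of 0.262 and 0.231.

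**Figure D4:**
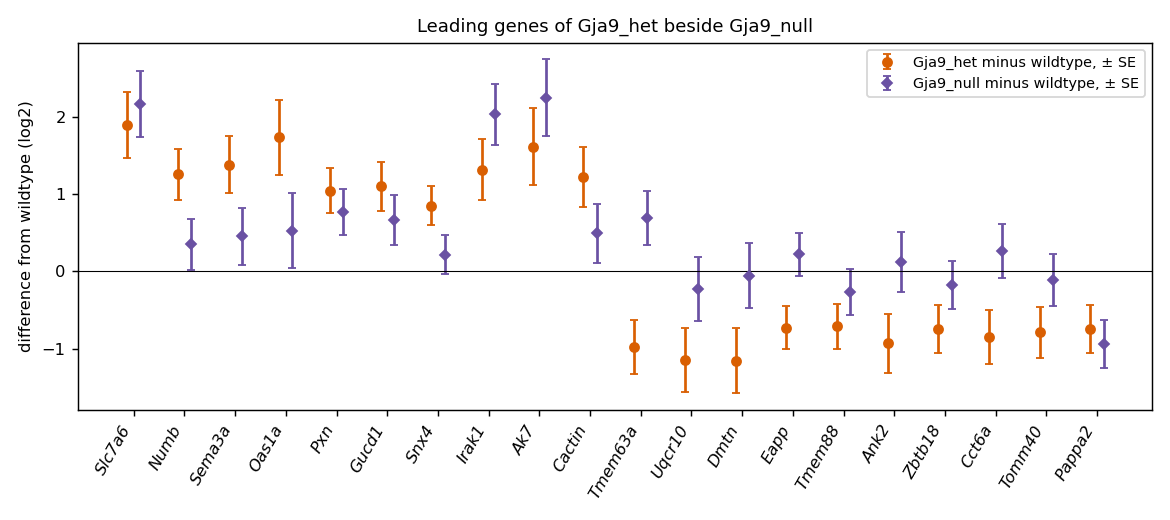
Difference from wildtype (log2, vertical axis) in Gja9_het (orange circles) and Gja9_null (purple diamonds) for the 10 higher and 10 lower leading genes of Gja9_het, with standard errors; both are taken from the same wildtype samples. Slc7a6 lies at 1.90 and 2.16 in the mutants, while Tmem63a lies at -0.99 in Gja9_het and 0.69 in Gja9_null.

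The difference between genotypes also followed the place of a probe in the numbering of the array. Over 48 equal stretches of probe numbers, the median difference ran from -0.29 in stretch 2 to 0.44 in stretch 33, and 26 stretches lay above 0. Subtracting from each sample the median deviation of the probes within 50 numbers on either side narrowed this to between -0.05 and 0.03. All 10 higher and all 10 lower leading genes kept their direction after this centring: Slc7a6 was then 1.66, Oas1a 1.79, Numb 0.97, Sema3a 0.92, Tmem63a -0.90 and Uqcr10 -1.11. Among the lower leading genes, Zbtb18 went from -0.75 to -0.66, with 1 of its 4 clones at 0.003. Of the other genes with values above, Selenos went from 0.74 to 0.48 and Zfp821 from 0.71 to 0.39, with 1 of its clones at 0.01. Mal went from -0.45 to -0.25, Car2 from -0.26 to -0.11 and Panx1 from -0.20 to -0.36. Some list medians moved as well. Amino acid transporters went from 0.17 to 0.03 and microglial and immune markers from 0.11 to -0.04. Oligodendrocyte and myelin markers went from -0.24 to -0.18, and axon guidance genes stayed at 0.13. The correlation between first and last clones was 0.039 after centring. The part of probe position in the remaining differences was not tested.

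**Figure D5:**
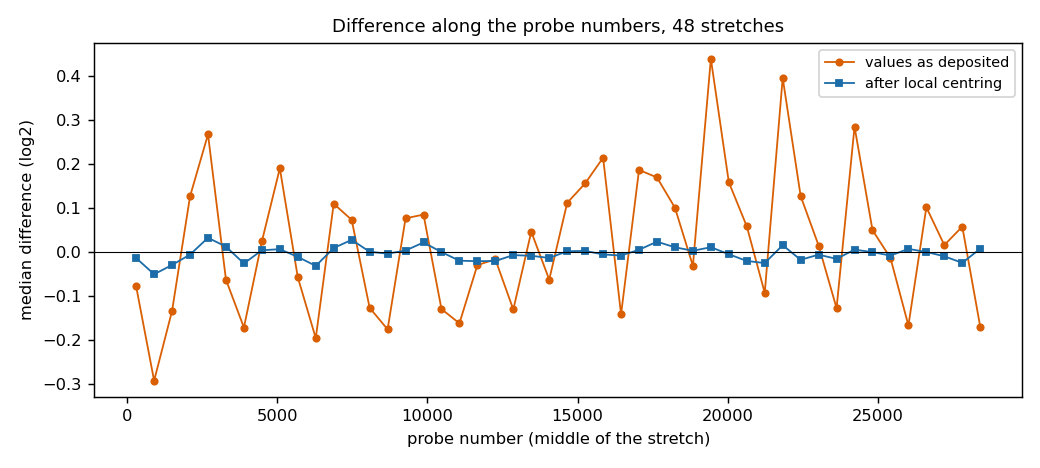
Median difference between Gja9_het and wildtype (log2, vertical axis) over 48 stretches of probe numbers (horizontal axis), for the deposited values (orange circles) and after local centring (blue squares). The deposited values swing between -0.29 and 0.44, and the centred ones stay between -0.05 and 0.03.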

How the data were processed

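Brain RNA (60 micrograms a sample) was labelled with Cy3 or Cy5, per the labels' protocols; the label field was followed for wildtype 3 and Gja9_null 1, whose labelling text gives the opposite dye. The deposited values are log2 signals relative to each sample's mean, as read from the values; the sources used here do not say how the authors corrected background and dyes. Probes with 1 gene (10356 of 13443; 560 have several and 2527 none) were named through the platform's probe table, 10263 of them with symbols updated from a mouse RefSeq table. Shared arrays were read from the values: the difference of samples 1 and 3 correlated with that of samples 2 and 4 at 0.940 in wildtype and 0.919 in Gja9_het. limma 3.58.1 in R 4.3.3 fitted genotype and dye over all 12 samples with the array as a random block (duplicateCorrelation), two-sided, and was tested on simulated data. Nothing in the labels says that the samples are separate animals beyond calling them biological replicates. Genotype varies only between arrays, and the fit used 1 array correlation, 0.927, for all features. The standard error of a feature, and so its p-value, drew on differences between arrays and between the colours of an array. It need not follow the gap between arrays. Fabp7, with wildtype arrays 2.96 apart, had an SE of 0.67. Eif2s3y, with wildtype arrays 0.53 apart, had an SE of 0.86. Deviations of same-numbered Gja9_het and wildtype samples correlated at 0.113, 0.228, 0.173 and 0.159. Different numbers of the same array order gave 0.0803 to 0.139, and numbers of different array order -0.224 to -0.0693. Equal numbers also mean equal dye and array order, so a pairing of samples cannot be told apart from these. The main fit did not pair samples by number, and a replicate block was fitted only as an alternative.

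Named genes are the 10 higher and 10 lower of smallest unadjusted p, the 6 and 6 of largest difference without overlap, the 5 and 5 with clones in the same direction, up to 3 of each list, and connexins and pannexins. These rules, the lists and the alternatives (block, dye, normalization, local centring, samples, dim probes) were chosen with earlier results of these data known.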

Additional observations from a re-analysis of the deposited data

Results flagged for a closer look

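In 6 of 238 groups of 4 samples of the named genes, 1 sample stood apart from the other 3 by Dixon's test at its 95% critical value. For independent samples chance gives about 1 in 20. The samples here share arrays in pairs, so that rate does not apply and the count is a description. Wildtype sample 2 measured 0.0935 for the Y-linked gene Eif2s3y, where the other wildtype samples lay between -1.0 and -0.83. Wildtype sample 3 was low for the synaptic scaffold gene Dlgap1, at 0.216 against 0.567 to 0.628, and high for Itgam, at 0.383 against 0.288 to 0.30. Wildtype sample 4 was high for Pard3, at -1.02 against -1.24 to -1.22. Gja9_het sample 3 was high for the kinase subunit Csnk2a2, at -0.806 against -0.945 to -0.93, and Gja9_het sample 1 was low for Tyrobp, at 1.22 against 1.44 to 1.48.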

How the results depend on the processing

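The count of 0 called features held with array means, with the replicate block (0 called, 185 higher and 65 lower at an unadjusted p under 0.05), without the dye term, with each dye alone, under median, quantile and cyclic loess normalization, with only 8 samples, without the first Gja9_null array, without dim probes or the last 3 stretches, with each probe alone, with other spread models, with array weights, at an adjusted p under 0.1 and without each sample in turn (0 to 0). The replicate block changed no call. Taking the 12 samples as independent, with no array block, gave 70 called features, among them 12 of the named genes (Cactin, Gucd1, Hspb7, Irak1, Lrrc56, Mmp19, Numb, Oas1a, Pappa2, Pxn, Sema3a and Snx4). Local centring over 50 or 200 probe numbers gave 1 called feature each, and 0 with array means. It lowered the largest size of a stretch median from 0.439 to 0.0507 (a median of -0.0507), by construction. The share at an unadjusted limma p under 0.05 was less stable than the calls. Centring over 50 probe numbers gave 452 higher and 226 lower features, beside 159 and 49 in the main fit. Array weights gave 294 and 70, and array means without centring 144 and 35. The split of non-overlapping features, 825 higher and 579 lower as deposited, was 707 and 731 after median centring, 721 and 753 after quantile normalization and 764 and 708 after cyclic loess.

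Of 3067 pairs of a named gene and an alternative, 3042 kept direction and side of the threshold and 13 reversed. Panx1 reversed to 0.203 without the dimmest 25% of probes and without the last 3 stretches, since both leave out its second clone. Kel reversed to -0.079 under local centring, with and without array means. Ier5, at 0.01, reversed to -0.0471 with Cy5 only, -0.0278 after median centring, -0.122 after quantile normalization, -0.0442 after cyclic loess and lay between -0.0739 and 0.0992 without each sample in turn, below 0 without wildtype replicates 1 (-0.0267) and 4 (-0.0739) and Gja9_het replicates 2 (-0.00409) and 3 (-0.0283). Eif2s3y reversed to -0.0372 without wildtype replicate 1 and lay between that and 0.486 without each sample in turn. The causes of the other reversals were not tested. With 2 arrays a genotype, the standard errors limit what can be detected.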

Other observations

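Probes without a single gene name made up 74 of the 159 features that were higher at an unadjusted p under 0.05 and 26 of the 49 that were lower, and the smallest p of the whole comparison. At probe 14419 the Gja9_het arrays averaged 4.21 and 3.76 and the wildtype arrays 2.81 and 2.22, a difference of 1.47 ± 0.29 (unadjusted limma p 0.000168); this is the feature called under local centring, at 1.45 with an adjusted p of 0.0179. The highest difference of all, 2.50 ± 0.67, was at probe 13976, where the wildtype arrays averaged 0.51 and -2.39, and the lowest, -1.76 ± 0.48, was at probe 24840. Which transcripts these clones represent is not given in the tables used here.

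Over probes, the SD of a sample was 1.264 to 1.297 in Gja9_het and 1.29 to 1.34 in wildtype, ranges that overlap. The stretch medians of single samples deviated by -0.25 to 0.32 in Gja9_het and by -0.74 to 0.56 in wildtype. The 10 genes whose first and last clones lie within 100 probe numbers had clone differences correlated at 0.58, and at 0.30 after local centring, beside 0.03 for the 2576 genes with clones farther apart.

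The 3 immediate early genes with values were 0.71 ± 0.37 (Klf4), 0.44 ± 0.27 (Fosl2) and 0.01 ± 0.46 (Ier5), and the samples of Fosl2 did not overlap. Those of Klf4 overlapped, and this gene rests on 1 clone and was dim, with means of -3.17 in Gja9_het and -3.88 in wildtype. Of 25 glycolysis and lactate genes, the samples of 2 were separated with higher values and those of 2 with lower values. Among them, the pyruvate dehydrogenase kinases Pdk2 and Pdk4 differed by 0.46 ± 0.30 and -0.57 ± 0.36. Over all features, samples did not overlap at 8.67% with higher and 6.09% with lower values.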
